A study of Homo sapiens with 6 samples.

Results

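PPARGC1A and 8 further regulators of mitochondrial biogenesis were examined in human neurons after β-adrenergic stimulation. The 9 genes were taken from the deposited RNA-seq table by name, not by a threshold on their values, as PGC-1 family members and the factors they act with: the coactivators PPARGC1A, PPARGC1B and PPRC1, the nuclear receptors ESRRA and ESRRG, the nuclear respiratory factors NRF1 and GABPA, and the mitochondrial transcription factors TFAM and TFB2M. They are 9 of the 19823 genes in the table, and all 9 were among the 18130 genes with enough reads to be tested. None of the 9 passed the test, and the level of PPARGC1A with isoproterenol was 1.01 times that without, with a 95% interval of 0.923 to 1.10.

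WTc11 is a line of human induced pluripotent stem cells, and the glutamatergic neurons (iNeurons) studied here were made from it by doxycycline-inducible expression of the transcription factor NGN2. Both groups carried a knockdown of RBM12 by CRISPR interference, in which dCas9-KRAB is guided to a gene and represses it. Both came from the parental line with its native β2-adrenergic receptor. The paper describes this receptor as scarce in the line, with only a very modest cAMP and transcriptional response. Its bearing on the values below was not tested. Each group had 3 samples: untreated neurons, and neurons given isoproterenol, a β-adrenergic agonist that raises cAMP. Neither the dose nor the duration is given by the labels, neurons without the knockdown were not analysed here, and nothing states that replicates were separate cultures, so p-values measure the spread between these samples, which may be technical.

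PGC-1α, encoded by PPARGC1A, binds no DNA itself but is recruited by nuclear receptors and other factors and brings histone acetyltransferases and the Mediator complex to their target genes. In brown fat and liver its own gene is a well-known target of cAMP and CREB, the factor that binds cAMP response elements. Through the estrogen-related receptors and the nuclear respiratory factors the PGC-1 coactivators raise respiratory chain genes and TFAM, the protein that packages mitochondrial DNA and starts its transcription. In the brain PGC-1α is best known for its role in parvalbumin interneurons, in antioxidant defense and in mitochondrial upkeep.

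Short promoter windows are shown first, because the cAMP response element (CRE) upstream of PPARGC1A is the reason that this coactivator is looked for among cAMP targets. The 250 bases before the start of each gene's MANE Select transcript (GENCODE 44, GRCh38) were searched on both strands for the CRE TGACGTCA and its shorter core TGACG, the NRF1 motif GCATGCGC, the GABP motif CGGAAG and the estrogen-related receptor motif TNAAGGTCA. Bases are numbered backward from the start, and capitals mark the motif. PPARGC1A held a full CRE at bases -132 to -125, on the minus strand of chr4:23890161-23890190, in the window below. NR4A2, a nuclear receptor gene that rose with isoproterenol in the limma fit with paired replicates (below), held the same 8 letters from base -137, on the minus strand of chr2:156332840-156332869, and is shown for comparison. Among the 11 cAMP-responsive comparison genes (below), NR4A2 alone held a full CRE in this window, and PER1 and CREM did not hold the core either.
PPARGC1A: ctgcctttgagTGACGTCAcgagttagagc
NR4A2: ggccctgctcgTGACGTCAggtcggaaata

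The full CRE was present in 467 of 19016 promoters of this length (2.46%), and the shorter core, which lies within it on both strands, in 25.6%. PPARGC1A was the only member with either before its MANE Select start. That window also overlaps annotated exons of PPARGC1A itself. RefSeq lists other starts for some members, and which start these neurons used was not tested. A further PPARGC1A start in RefSeq (GRCh38.p14) lies 582858 bases upstream, at base 24472905 of chromosome 4 and outside the GENCODE gene. The window before it held no full CRE and the core once, from base -119, on the minus strand at chr4:24473008-24473037. The window before another RefSeq start of PPARGC1A, at base 23881101, held neither, and that before an ESRRG start at base 217089824 of chromosome 1 held the core from base -72 (minus strand, chr1:217089880-217089909).
PPARGC1A, upstream start: cagcgcgcccacgTGACGgccccggctctc
ESRRG, RefSeq start: cagacaggcatcaTGACGtcctgggtcaca

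Motifs of the respiratory factors are shown for the members that held them, since these factors are themselves members. The NRF1 motif was present in 3.84% of all promoters and the GABP motif in 21.9%. ESRRA held the NRF1 motif from base -29 (plus strand, chr11:64305484-64305513). TFB2M held it from base -15 (minus strand, chr1:246566262-246566291), and the GABP motif in 2 adjoining copies from bases -59 and -53, of which the upstream copy is in capitals (chr1:246566303-246566332). GABPA held the GABP motif in reverse from base -66 (plus strand, chr21:25734894-25734923).
ESRRA: ccccctgctttGCATGCGCacggccggccc
TFB2M, NRF1 motif: aaggctccgctgttcGCATGCGCaggctct
TFB2M, GABP motif: gctgagccgaggCGGAAGcggaagtgaggg
GABPA: acctccgctctaCTTCCGgccctggctccg

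No window held the estrogen-related receptor motif, which 0.510% of all promoters held, and PPARGC1B, PPRC1, ESRRG, NRF1 and TFAM held none of the motifs searched before their MANE Select starts. A match or its absence describes these letters in this window and says nothing of binding.

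The PGC-1 coactivators came first. PPARGC1A (ENSG00000109819, chr4:23755041-23904089, minus strand) had 887, 989 and 984 normalized counts without treatment (replicates 1 to 3, in this order throughout) and 964, 969 and 951 with isoproterenol. A normalized count is the number of reads of a gene divided by a size factor that corrects for the depth of its sample. The lowest and the highest of these 6 values were both untreated, and the isoproterenol values all fell between them. The mean was 953 ± 57.7 untreated and 961 ± 9.24 with isoproterenol (SD, n = 3), a log2 fold change of 0.01 ± 0.062 (SE), with an adjusted p of 0.978 (limma, Benjamini-Hochberg over all 18130 genes). Of all genes tested, 90.2% had a larger absolute change than PPARGC1A. The gene was covered by 840 to 1022 reads per sample, so counting alone gives a coefficient of variation of 3.29%. The 3 untreated replicates varied by 6.05% and the 3 isoproterenol replicates by 0.961%.

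PPARGC1B (ENSG00000155846, chr5:149730298-149855022, plus strand) encodes PGC-1β, the close relative of PGC-1α that keeps up basal mitochondrial content. It measured 327, 316 and 336 normalized counts untreated and 301, 346 and 328 with isoproterenol. The groups overlapped fully, the isoproterenol samples holding both extremes. The log2 fold change was -0.01 ± 0.091, with an adjusted p of 0.992.

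PPRC1 (ENSG00000148840, chr10:102132994-102150333, plus strand) encodes the PGC-1-related coactivator, known as the member induced by serum in dividing cells. Its values were 581, 547 and 496 normalized counts untreated against 569, 557 and 581 with isoproterenol. Untreated replicate 3 was the lowest and the other 5 values lay between 547 and 581. The log2 fold change was 0.08 ± 0.076, with an adjusted p of 0.859 and an interval of -0.08 to 0.23.

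The estrogen-related receptors are orphan nuclear receptors that PGC-1 coactivators bind without a hormone. ESRRA (ENSG00000173153, chr11:64305497-64316743, plus strand) measured 260, 303 and 279 normalized counts untreated and 266, 217 and 243 with isoproterenol. The lowest 2 values were in isoproterenol samples and the highest 2 in untreated samples, while replicate 1 differed little, so the groups overlapped. The log2 fold change was -0.21 ± 0.107 (95% interval -0.44 to 0.01), with an unadjusted p of 0.0582 and an adjusted p of 0.654 by limma. Of the exonic bases of ESRRA, 284 (9.16%) overlap TRMT112 on the opposite strand. Whether counting used the strand is not stated, so reads there cannot be assigned with certainty; TRMT112 had a log2 fold change of 0.07.

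ESRRG (ENSG00000196482, chr1:216503246-217137755, minus strand) encodes ERRγ, the estrogen-related receptor most tied to oxidative metabolism in neurons and heart. It measured 316, 290 and 352 normalized counts untreated and 314, 285 and 386 with isoproterenol. Samples of the same number lay closer to each other than to others of their group, with replicate 3 highest and replicate 2 lowest in both. The log2 fold change was 0.03 ± 0.111, with an adjusted p of 0.968.

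NRF1 (ENSG00000106459, chr7:129611720-129757082, plus strand) encodes nuclear respiratory factor 1, an activator of respiratory chain genes and of TFAM. It measured 209, 206 and 189 normalized counts untreated and 197, 209 and 181 with isoproterenol. The groups overlapped, and the log2 fold change was -0.05 ± 0.112, with an adjusted p of 0.954.

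GABPA (ENSG00000154727, chr21:25734570-25772460, plus strand) encodes the DNA-binding subunit of GA-binding protein, also called nuclear respiratory factor 2. It measured 429, 429 and 400 normalized counts untreated and 394, 391 and 364 with isoproterenol. It was the only member whose groups did not overlap, the highest isoproterenol value lying below the lowest untreated one. Groups did not overlap in 12.9% of all genes tested, and 6.19% were lower with isoproterenol in that way. The log2 fold change was -0.13 ± 0.082 (95% interval -0.30 to 0.04), with an unadjusted p of 0.128 and an adjusted p of 0.741. GABPA shares 692 exonic bases (12.1%) with ATP5PF on the opposite strand, a gene whose log2 fold change was -0.0028.

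TFAM (ENSG00000108064, chr10:58385345-58399220, plus strand) measured 1155, 943 and 1073 normalized counts untreated and 1100, 1001 and 982 with isoproterenol. The untreated values enclosed the others, and the log2 fold change was -0.04 ± 0.072, with an adjusted p of 0.935. TFB2M (ENSG00000162851, chr1:246540561-246566261, minus strand) encodes the factor that opens mitochondrial promoters together with TFAM and the mitochondrial RNA polymerase. It measured 152, 134 and 181 normalized counts untreated and 123, 159 and 112 with isoproterenol, at 109 to 175 reads the fewest of the 9. Replicates 1 and 3 were lower and replicate 2 higher with isoproterenol, so the groups overlapped. The log2 fold change was -0.25 ± 0.153 (95% interval -0.57 to 0.07), with an adjusted p of 0.735.

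**Figure D1:**
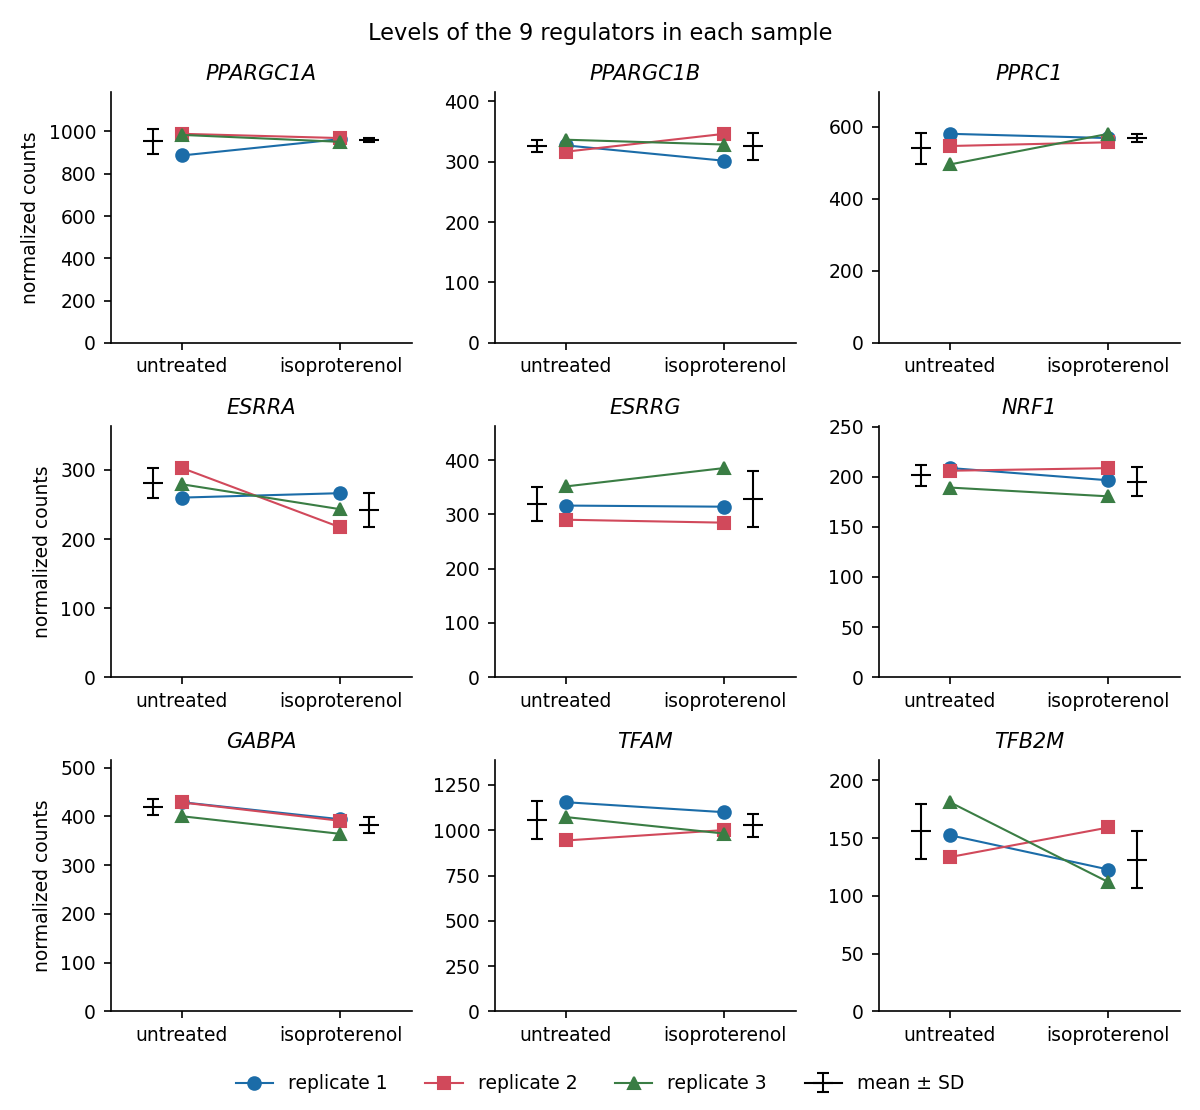
Normalized counts (y axis, from 0) of the 9 regulators in each untreated and isoproterenol sample; lines join samples with the same replicate number, and black bars give the mean ± SD of 3 samples. The isoproterenol values of PPARGC1A lie between 951 and 969, inside the untreated range of 887 to 989, and GABPA is the only gene whose groups do not overlap.

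Of the 9 members, 0 passed FDR 0.05 (limma), where 0.0165% of all genes tested did (3 of 18130). At an unadjusted p under 0.05, also 0 of 9 passed, against 7.68% of all genes. Both edgeR and DESeq2 on the recovered reads also called 0 of 9, with 0.0165% and 0.116% of all genes called. The estimates were higher with isoproterenol for 3 members and lower for 6, with a median log2 fold change of -0.04 beside 0.00153 over all genes tested. The 95% intervals give the changes compatible with these samples. They ran from 0.923 to 1.10 times for PPARGC1A, 0.943 to 1.18 times for PPRC1 and 0.673 to 1.05 times for TFB2M, the widest. They do not give the size of change that would pass FDR 0.05.

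Samples of the same replicate number deviated together across the transcriptome, and a fit with the replicate number as a block called many more genes. In that fit 885 genes passed FDR 0.05 (4.88%), and 977 (5.39%) in edgeR with the same block, but again 0 of the 9 members did so in either. DESeq2 with the block called 143 genes (0.789%) and 0 members. ESRRA was the only member with an unadjusted p under 0.05 in the blocked limma fit, as 16.2% of all genes had. The limma p of ESRRA was 0.0265 there, and its adjusted p was 0.218. The blocked adjusted p was 0.941 for PPARGC1A, 0.408 for GABPA and 0.345 for TFB2M.

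Within the pairs, PPARGC1A changed by 0.12, -0.03 and -0.05 on the log2 scale in replicates 1, 2 and 3. Its difference was positive in replicate 1 alone, where the untreated sample was the lowest of the 6. ESRRA changed by 0.04, -0.48 and -0.20, and TFB2M by -0.31, 0.25 and -0.69. These 2 genes thus had the largest within-pair changes of the 9 and each had a pair against the others. GABPA changed by -0.12, -0.13 and -0.14, the only member with the same sign in all 3 pairs, as 36.1% of all genes had and 17.6% in the lower direction. The median over the 9 members was -0.07, 0.02 and -0.07 in pairs 1, 2 and 3.

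A call for TFB2M depended on pair 2. When both samples of replicate 2 were left out of the blocked fit, its log2 fold change was -0.50 with an adjusted p of 0.0408 (limma), the only member past FDR 0.05 in any of the 21 alternatives tried. When those of replicate 3 were left out, it was -0.03. A blocked fit without a pair keeps so few samples that its variance estimate rests mostly on other genes. The sign for PPARGC1A also depended on replicate 1, since without that untreated sample the log2 fold change was -0.04 (adjusted p = 0.932).

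**Figure D2:**
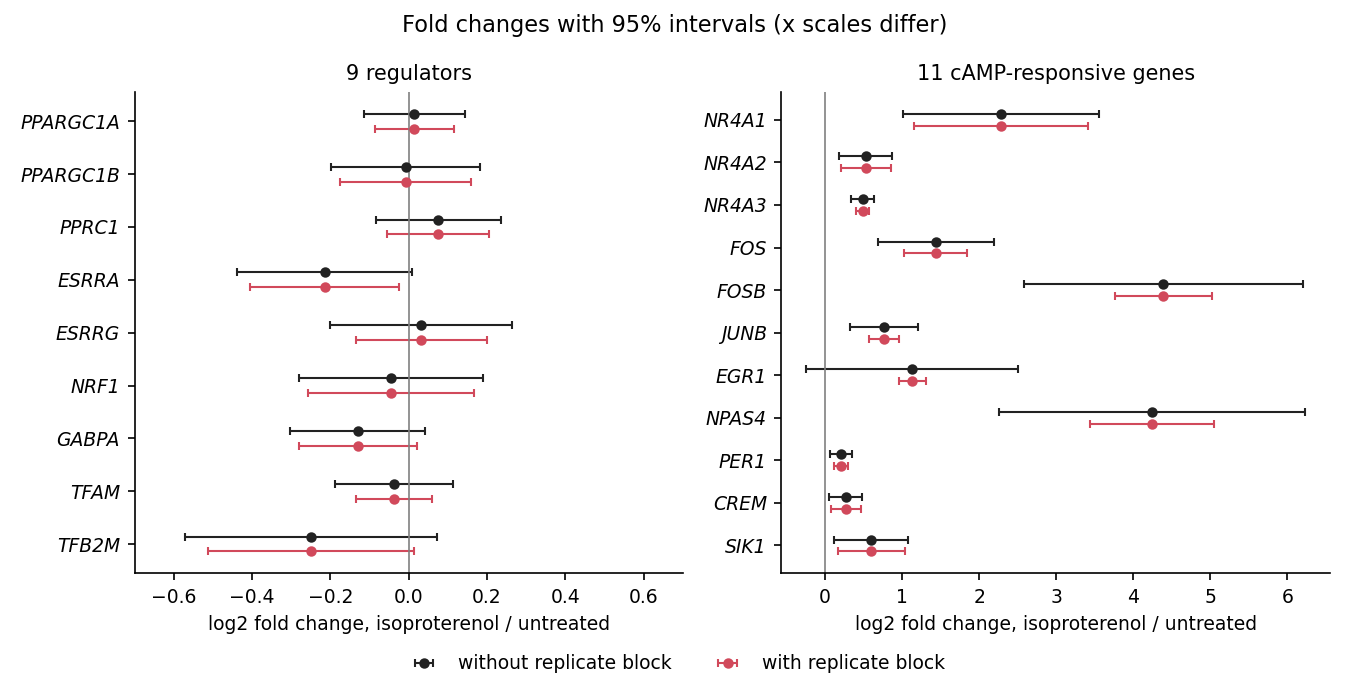
Log2 fold change (isoproterenol over untreated, x axis) with 95% interval from limma for the 9 regulators (left) and for 11 cAMP-responsive comparison genes (right, on a wider x scale), without and with the replicate block. Every unblocked interval on the left includes 0, and the blocked interval of ESRRA, from -0.40 to -0.03, does not.

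The 11 cAMP-responsive genes served as a comparison and were picked with their response in these samples known, so they are no independent evidence of a response. All 11 were higher with isoproterenol in all 3 pairs, as 18.5% of all genes tested were, with a median log2 fold change of 0.76. NR4A3, an orphan nuclear receptor gene, passed in the unblocked fit, at 1114, 1339 and 1221 normalized counts untreated and 1570, 1698 and 1879 with isoproterenol (log2 fold change 0.49 ± 0.073, adjusted p = 0.0324). When 1 sample was left out, the unblocked fit called 0 to 3 of the list, with 0 without untreated replicate 1. With a filter on a mean of 50 it called 0 of the 9 tested. With the block 8 of 11 passed as higher, where 2.82% of all genes did, and 5 of 11 in DESeq2 with the block. The 8 were NR4A2, NR4A3, FOS, FOSB, JUNB, EGR1, NPAS4 and PER1. NR4A2, whose CRE is printed above, measured 70.0, 77.4 and 62.1 normalized counts untreated and 92.8, 101 and 109 with isoproterenol (log2 fold change 0.53, blocked adjusted p = 0.0394 in limma and 0.668 in DESeq2). CREM, which encodes CREB-family activators and the repressor ICER, had a log2 fold change of 0.27 and NR4A1 one of 2.28, and neither passed in limma (blocked adjusted p = 0.102 and 0.119), though NR4A1 did in DESeq2 with the block (adjusted p = 1.13e-07), while SIK1, a kinase that restrains CREB coactivators, had 0.60 (0.105).

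Levels of different genes were compared per kb of exon. On the union of all annotated exons TFAM was highest, at a mean of 197 normalized counts per kb (179 to 219 over the 6 samples), above 76.0% of the genes tested. PPRC1 (91.0 per kb), PPARGC1A (88.1), ESRRA (84.3) and TFB2M (80.4) followed, and their ranges over samples overlapped. GABPA (69.9) overlapped ESRRA and TFB2M only. NRF1 came at 48.2 per kb, and ESRRG (29.6) and PPARGC1B (25.3) were lowest, with overlapping ranges. PPARGC1A itself lay at percentile 57.9 of all genes tested by this measure and PPARGC1B at 32.9.

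The order depended on which length was used, since PPARGC1A and ESRRG have many annotated exon bases outside the MANE Select transcript. Per kb of the MANE Select transcript, PPARGC1A was second at 152 normalized counts per kb (141 to 157), apart from TFAM above it (188 to 230) and ESRRA below it (95.3 to 133). ESRRG moved to 62.3 per kb, with a range that overlapped those of NRF1, GABPA and TFB2M. TFAM was first and PPARGC1B last by both lengths. Of the family, PPARGC1A was thus 3.48 to 4.94 times as abundant per length as PPARGC1B, depending on the length used.

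**Figure D3:**
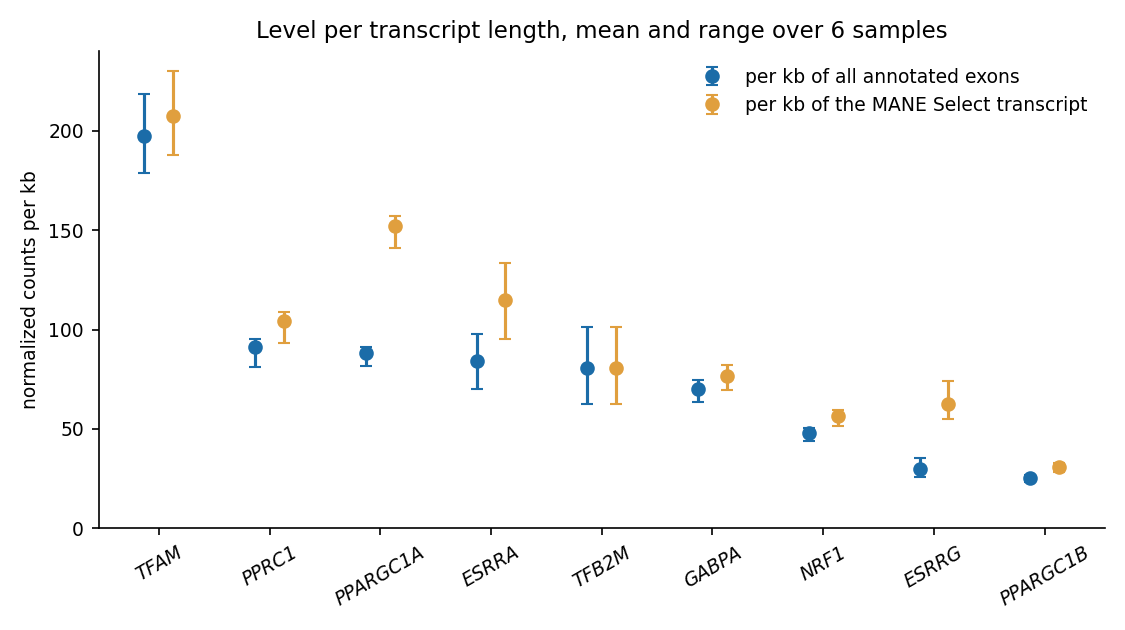
Normalized counts per kb (y axis, from 0) of the 9 regulators, as the mean (point) and range (bar) over all 6 samples, for 2 definitions of transcript length. TFAM is highest and PPARGC1B lowest by both, and PPARGC1A rises from 88.1 to 152 per kb when only the MANE Select transcript is counted.

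The genes whose pattern over the 6 samples was most like that of PPARGC1A were NPNT (Pearson's r = 0.981), TCAF1P1 (0.981), CDK4 (0.975), INTS9 (0.974) and DAG1 (0.970). They were ranked among 13062 genes whose mean reached 50 normalized counts, as a description over 6 libraries that share their depth scaling. All 5 were lowest in untreated replicate 1, as PPARGC1A was, and 0 other members were among the 100 most alike. TCAF1P1 is a pseudogene, whose reads can be shared with its parent gene.

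Partner receptors and regulators of the PGC-1 proteins were read next, 37 of the 40 listed being tested. Of these, 17 were higher and 20 lower with isoproterenol, with a median log2 fold change of -0.0049. In the unblocked fit 0 passed, and with the block 5 passed (background 4.88%), 2 as higher and 3 as lower. The 4 described here do not include the call with the smallest adjusted p, and none of the 4 passed in DESeq2 with the block (adjusted p = 0.402 to 0.540). Of all 37, DESeq2 with the block called 1, as higher, where it called 0.789% of all genes. Without replicates 1, 2 and 3 the blocked fit called 3, 4 and 2 of the list, and 531, 665 and 456 of all 18130 genes. ESRRB, the remaining estrogen-related receptor, rose by 0.46 (blocked adjusted p = 0.0171), from 142, 98.7 and 111 to 174, 128 and 185 normalized counts, with overlapping groups. RXRG, a retinoid X receptor, fell by 0.24, THRA, a thyroid hormone receptor, fell by 0.13, and LRPPRC, which stabilizes mitochondrial mRNAs, fell by 0.10, all on the log2 scale and by the blocked limma fit (adjusted p = 0.0117, 0.00944 and 0.0126). TFEB, a lysosomal regulator (log2 fold change 0.39), PPARA, the fatty acid oxidation receptor (0.20), and MEF2C, an activator of PPARGC1A in muscle (-0.17), had the largest other changes and did not pass. PPARG was too low to be tested.

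Of the 21 genes of mitochondrial DNA transcription and replication, 8 were higher and 13 lower, with a median of -0.04. With or without the block 0 passed, and 2 had an unadjusted blocked p under 0.05 by limma, as 16.2% of all genes did. MTERF3, a repressor of mitochondrial transcription, measured 164, 172 and 152 normalized counts untreated and 209, 202 and 186 with isoproterenol. These groups did not overlap, as in 12.9% of all genes tested, and the log2 fold change was 0.29 with a blocked adjusted p of 0.138. MGME1, a mitochondrial nuclease, had a log2 fold change of 0.18 and TOP1MT, the mitochondrial topoisomerase, one of -0.14.

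Of the 13 mRNAs encoded by mitochondrial DNA, 11 were lower with isoproterenol and 2 higher, with a median log2 fold change of -0.06. That median depended on single samples. In untreated replicate 3, 4.54% of reads came from mitochondrial genes, against 3.44% to 3.99% in the other 5 samples. The medians within pairs 1, 2 and 3 were 0.01, -0.0042 and -0.22, and without that sample the median was 0.06, with 3 of 13 lower. It was 0.0081 without isoproterenol replicate 1, with 6 of 13 lower, and -0.18 without untreated replicate 1, with 13 of 13 lower. MT-ND6, the only one of these mRNAs from the other strand of the mitochondrial genome, measured 421, 412 and 690 normalized counts untreated and 299, 397 and 430 with isoproterenol. It fell by 0.41 on the log2 scale in the blocked fit (adjusted p = 2.62e-04) but not in DESeq2 with the block (adjusted p = 0.540), and its untreated replicate 3 was the highest by far. MT-ND5 (-0.14), MT-ND1 (-0.12) and MT-ND4 (-0.11) did not pass. The number of calls moved with the pairs used: the blocked fit called 9 of 13 as lower without replicate 1, 9 as lower and 1 as higher without replicate 2, and 0 without replicate 3. Over all 18130 genes those fits called 531, 665 and 456, with variance estimates that rest mostly on other genes.

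The nuclear targets of the axis, mainly respiratory chain, citric acid cycle and fatty acid oxidation genes, were tested for 31 of 34. They were lower with isoproterenol in 26 and higher in 5, with a median log2 fold change of -0.05 beside 0.00153 over all genes. In the unblocked fit 0 passed. With the block 6 passed as lower (19.4%, where 2.06% of all genes did) and 1 as higher (2.82% of all genes). DESeq2 with the block called 0 of 31, and the blocked limma fit called 2, 4 and 3 as lower without replicates 1, 2 and 3. The medians within pairs 1, 2 and 3 were -0.06, -0.04 and -0.07. Leaving out any of the 6 samples kept the median between -0.07 and -0.03 and the number lower between 19 and 27 of 31.

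ACADM, the medium-chain acyl-CoA dehydrogenase and a classical target of ERRα, had the largest of these falls. It measured 995, 899 and 922 normalized counts untreated and 802, 802 and 829 with isoproterenol, without overlap, a fall of 0.21 on the log2 scale (adjusted p = 0.375 unblocked, 0.00633 with the block). UQCRC2, a core subunit of complex III, went from 3376, 3601 and 3353 to 3079, 3169 and 3110 normalized counts, also without overlap (fall of 0.14, blocked adjusted p = 8.65e-04). COX7A2 and COX5B, both subunits of cytochrome oxidase, fell by 0.13 and 0.11, the superoxide dismutase gene SOD2 by 0.10, and CYCS, which encodes cytochrome c, by 0.09 in the blocked fit. All 6 falls were thus under 0.25 on the log2 scale. VEGFA, an angiogenic growth factor gene that PGC-1α can raise through ERRα, rose by 0.24 (blocked adjusted p = 0.0350), with 433, 411 and 436 normalized counts untreated and 459, 464 and 598 with isoproterenol. CPT1A (-0.17), ATP5PO (0.11) and OGDH (-0.10) had the largest changes among those that did not pass.

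Genes tied to PGC-1α in neurons were tested for 5 of 6. PVALB, the parvalbumin gene of the interneurons in which PGC-1α is best studied, was too low to be tested, with a highest value of 4.84 normalized counts. NEFL, the light neurofilament chain, fell by 0.05 on the log2 scale (blocked adjusted p = 2.68e-04), from 294712, 284314 and 289113 to 283871, 282204 and 275114 normalized counts. DESeq2 with the block did not call it (adjusted p = 0.753). NEFM (-0.14), NEFH (0.09) and CPLX1 (-0.04) did not pass, and the list's median of -0.04 turned positive without untreated replicate 3 (0.02) or isoproterenol replicate 1 (0.0013).

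Of the 18 genes of mitochondrial import and dynamics, 12 were lower and 6 higher, with a median of -0.03. The blocked fit called 2, both lower (where 2.06% of all genes were), and 1, 1 and 0 without replicates 1, 2 and 3. They were HSPD1, the chaperonin of the matrix, by 0.11 and TOMM20, a receptor of the outer membrane, by 0.09 (adjusted p = 0.00473 and 0.0207). DESeq2 with the block called 0. HSPE1, the cochaperonin of HSPD1 (-0.17), and TIMM23, a channel of the inner membrane (-0.10), did not pass.

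**Figure D4:**
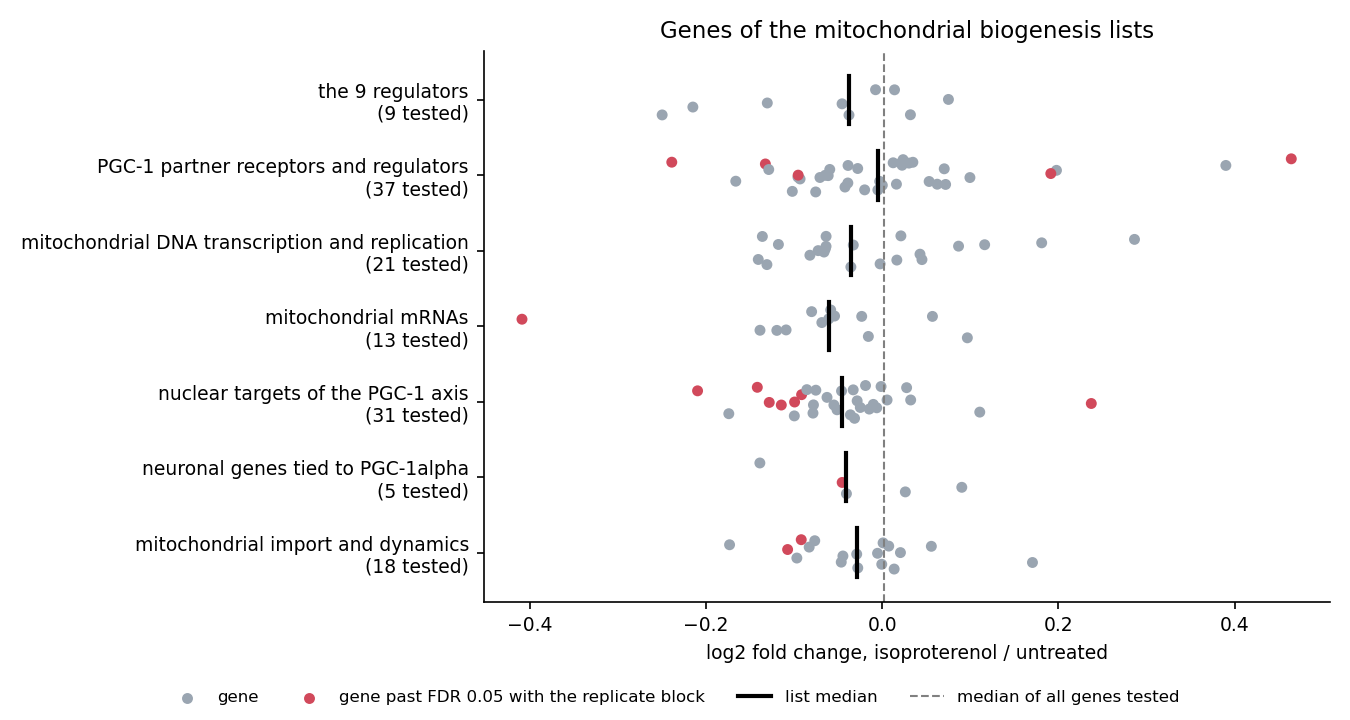
Log2 fold change (isoproterenol over untreated, x axis) of each tested gene of the 9 regulators and of 6 related lists; red points passed FDR 0.05 in the blocked limma fit, black bars are list medians and the dashed line is the median of all genes tested. None of the 9 regulators is red, and 26 of the 31 nuclear targets lie below 0.

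The libraries held 18116816 to 21488793 recovered reads. RBM12 itself measured 244, 279 and 267 normalized counts untreated and 195, 238 and 233 with isoproterenol (log2 fold change -0.25, adjusted p = 0.607, blocked 0.131), and without control-guide samples these values do not check the knockdown. The summed markers of glutamatergic neurons (10 of 10 in the table, 9 tested) were 64137 to 65230 normalized counts untreated and 63029 to 67073 with isoproterenol. The list also holds genes shared with other neurons, such as MAP2 and TUBB3, so the sum fits neurons without showing the glutamatergic type. Markers of other cells were low. Astrocyte markers (2 of 5 in the table, GFAP, ALDH1L1 and SLC1A3 absent) summed to 160 to 175 untreated and 134 to 157 with isoproterenol, and GABAergic markers (3 of 4, DLX2 absent) to 55.3 to 60.0 and 66.9 to 79.0. These sums did not overlap between groups, and their part in the differences above was not tested. Pluripotency markers (3 of 5, NANOG and DPPA4 absent) summed to 79.4 to 102 and 97.4 to 115, proliferation markers (2 of 5, MKI67, TOP2A and CDK1 absent) to 125 to 152 and 130 to 151, and muscle and adipose markers (1 of 4) to 66.8 to 101 and 60.0 to 85.1, all with overlap. In bulk RNA, fewer cells of a type and less RNA per cell cannot be told apart.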

How the data were processed

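RNA-seq was carried out on 6 samples, and sample titles gave the groups and replicate numbers. The authors selected poly(A) RNA, used a directional kit, aligned reads to GRCh38 with STAR and counted them with featureCounts; versions, annotation and the strand setting are not given in the sources used here. The deposited values are a signal, the read count divided by a DESeq2 size factor. Dividing each column by its smallest step gave back whole reads (100% of values above 0, within a tolerance of 0.01), and the number of reads limits the precision of each value.

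A gene was tested if its recovered reads exceeded 5 in 4 or more samples (18130 of 19823, with 1693 removed). The test was limma 3.58.1 in R 4.3.3 (trend, robust) on log2(value + 1), with two-sided p-values adjusted by Benjamini-Hochberg over all 18130. The added 1 understates changes of low genes. On recovered reads, edgeR 4.0.16 (quasi-likelihood) and DESeq2 1.42.0 were alternatives. The procedures were tested on simulated data, with planted changes larger than that of any member. Their power for smaller changes was not tested. The edgeR test was planned for a table of raw counts only.

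Over 11587 genes (mean 100 or higher), deviations from the group mean correlated at 0.269, 0.493 and 0.388 within same-numbered pairs 1, 2 and 3, and a mean of 0.383 compares with -0.195 to 0.163 for the other matchings. All pairs exceeding 0.1, the numbers were taken to pair samples, and blocked values are given beside the unblocked ones. Replicates of a group were distinct libraries (chi-square per degree of freedom 3.32 to 5.47).

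The members and lists were chosen with earlier results of these data known, although no threshold on measured values entered the choice of the members. Named genes are the members, RBM12, list genes past FDR 0.05 with or without the block, 3 further genes per list with the largest change at a mean of at least 50, and the 5 genes most correlated with PPARGC1A; some genes that this rule names are not reported here. GENCODE 44 held 19742 (99.6%) of the identifiers and gave positions, lengths and overlaps. Sequences are from the GRCh38 genome and, for starts other than MANE Select, from RefSeq, whose promoter table held 8 of 9 members.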

Additional observations from a re-analysis of the deposited data

How the results depend on the processing

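The members gave 0 calls in 20 of 21 alternatives and 1 (TFB2M, -0.50) in the blocked fit without replicate 2, so that the count ran from 0 to 1. Their median log2 fold change stayed between -0.078 and -0.015. The number of genes past FDR 0.05 over the whole table was 3 in limma and edgeR, 21 in DESeq2, 885 with the replicate block, 977 in edgeR with the block and 143 in DESeq2 with the block. It ran from 2 to 67 when a sample was left out (67 without isoproterenol replicate 2), and was 531, 665 and 456 in the blocked fit without replicates 1, 2 and 3. The block over all samples changed no call of a member.

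Estimates near 0 changed sign when samples were left out. Over the settings that left out 1 sample, PPARGC1A ran from -0.037 (without untreated replicate 1) to 0.041, PPARGC1B from -0.053 to 0.046, PPRC1 from 0.014 to 0.128, ESRRG from -0.090 to 0.128, NRF1 from -0.095 to 0.0095 and TFAM from -0.117 to 0.029. In the blocked fit without replicate 1, PPARGC1A was at -0.039 and PPARGC1B at 0.047, and without replicate 3, PPARGC1B was at 0.0059, PPRC1 at -0.0013, ESRRG at -0.018 and TFAM at 0.0073. ESRRA (-0.34 to -0.08), GABPA (-0.16 to -0.09) and TFB2M (-0.50 to -0.03) stayed below 0 in all 21 alternatives. The causes were not tested. Of 399 combinations of a result and an alternative, 367 counted as unchanged. A gene had to keep its sign and its side of the threshold, and a list median had to stay within the SD of its 3 pair medians. That rule is loose for variable lists: the mitochondrial mRNA median of -0.061 counted as unchanged at 0.059 without untreated replicate 3. Some alternatives, such as another filter, could hardly move an estimate. With 3 samples per group, an exact permutation test of a single gene cannot go below p = 0.1.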
